A study of Solanum tuberosum with 10 samples.

Results

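A set of 58 potato genes had at least 4-fold lower transcript levels in ultrasonicated (US) explants than in control explants directly after the treatment, and differed by less than 2-fold at each later time. They were found among 39021 features with PGSC gene identifiers, of 40430 features in all. A gene was taken when its level in US was lower than in the control by at least 2 on the log2 scale at 0 h. Its control level at 0 h had to be at least 1 RPM (read per 1000000 reads of the library), and the difference between US and control had to be under 1 on the log2 scale at each of the 4 later times (24 h, 48 h, then 1 w, then 4 w). The difference at 0 h and the limit on the later ones are thus what the genes were chosen for, and they are given here as a description with no test.

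The material was in vitro Solanum tuberosum of the cultivar Desirée, labelled as wild type in every group. The explants, each bearing a node and its leaf, came from 4-week-old plantlets and were put on hormone-free medium. Ultrasound was then given to US explants at 35 kHz and 70 W for 20 min, and control explants were cut and cultured in the same way with no ultrasound. US and control were each sampled at 0 h and at those 4 later times. Each of the resulting 10 groups was 1 RNA-seq library, and the methods describe 3 biological replicates as pooled in it, while per the labels there was just one. Up to 48 h whole explants were taken, and at 1 w and 4 w leaves, stems and roots of the regrown plantlets, so that time and kind of material cannot be told apart. No difference at a single time therefore has a replicate check.

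Ultrasound passes through tissue as pressure waves, which shake, shear and warm cells and can open their membranes. Plants answer such abiotic stress within minutes to hours with changes in transcripts of signalling, water transport, carbohydrate use and protein protection. A freshly cut explant meanwhile responds to its wound and to being moved to new medium, and it then grows a new shoot and roots from its axillary bud, so the control itself changes over time.

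Library totals were between 33850938 and 45899162 reads, and 1 RPM equals 33.9 to 45.9 reads. The labels name leaf as the tissue, and 9 green-tissue markers (light-harvesting chlorophyll proteins, Rubisco small subunit and rbcL) had reads in all libraries. Their summed level was 2950 RPM in US and 4030 RPM in the control at 0 h, and 1560 to 9220 RPM in the later libraries. Most of this sum is the small subunit RBCS-2C (2810 RPM in US and 3460 RPM in the control at 0 h), and rbcL is itself a member. The 7 light-harvesting genes alone summed to 62.3 RPM in US against 120 RPM in the control at 0 h, and to 168 to 1210 RPM later. All 7 were lower in US at 0 h, with a median difference of -1.04 on the log2 scale. Features labelled as ribosomal RNA summed to 9360 RPM in US at 0 h, against 3520 RPM in the control at 0 h and 1760 to 4400 RPM in the later libraries. The library in which all members were lower than in its control was therefore also the one with the most ribosomal RNA, and one with low light-harvesting transcripts. The part of either in the members' levels was not tested.

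The set was small against what changed at 0 h. Of 20443 PGSC features with at least 1 RPM in the control at 0 h, 406 were at least 4-fold lower in US (1.99%), and the 58 members were 0.427% of the 13589 features that met the limits on the later times. Most of the 406 genes also differed later. Counting differences of at least 1 on the log2 scale, 83 of them were lower and 106 higher in US at 24 h. At 48 h 152 were lower and 70 higher, at 1 w 78 lower and 71 higher, and at 4 w 131 lower and 64 higher. The same rule turned round gave 49 genes that were raised by US only at 0 h. Applied to another time in place of 0 h, it gave 50 genes lowered only at 24 h, 50 only at 48 h, 23 only at 1 w and 90 only at 4 w.

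Among the members, the difference at 0 h had a median of -2.47 and ran from -5.81 to -2.004 on the log2 scale. For 31 members it lay between -2 and -2.5, and for 11 it was -3 or beyond. The median was -0.03 at 24 h and -0.20 at 48 h. Over the 20443 features with at least 1 RPM in the control at 0 h it was -0.07 at both times. In plantlets the median over members was 0.01 at 1 w and 0.11 at 4 w, against 0.01 and 0.02 over these features. The limit on later differences was wide, since 16 members had a later difference of at least 0.9 in size and only 6 stayed under 0.5 throughout. Just inside the threshold at 0 h were PGSC0003DMG401023118 (-2.049), PGSC0003DMG401008471 (-2.026) and PGSC0003DMG400026934 (-2.004), and just outside were PGSC0003DMG400029732 (-1.977), PGSC0003DMG400016695 (-1.950) and PGSC0003DMG400002800 (-1.949).

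**Figure D1:**
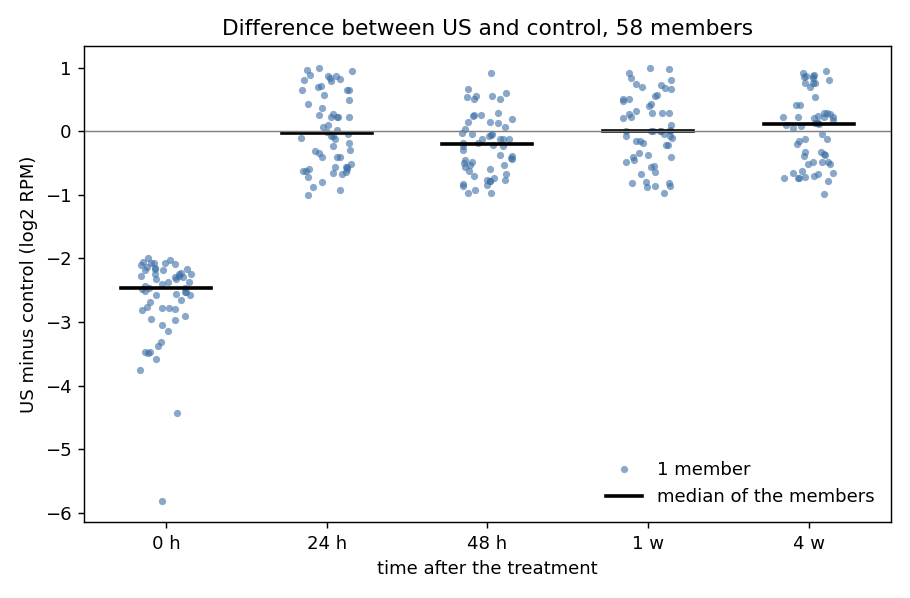
Difference between US and control in log2 RPM (vertical axis) at each time after the treatment (horizontal axis), with 1 point per member and a bar at the median of the 58 members. All points lie at -2.004 or lower at 0 h and within 1 of zero afterwards, as the rule required, and the medians of the later times lie between -0.20 and 0.11.

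Depth differed much between members. They had 35 to 29168 reads in the control at 0 h (median 204) and 0 to 6068 reads in US (median 40), and 23 of them had under 30 reads in US at 0 h. Their level after 0 h was also modest, with a median of 3.05 log2 RPM over members and 4.75 over the 20443 features. For the genes raised only at 0 h this median was 2.53. On a scale of log2(RPM + 0.5), which draws low values together, the rule found 62 genes, of which 30 were among the 58, so about as many members lost their place as kept it. With quantile-normalised values it found 54 genes, 48 of them among the 58.

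A name was available for 7 members, all from the study's list of genes that differed at 0 h. That list was drawn up on these samples and is no independent evidence of the direction. It held 63 features, of which 34 were lower in US by at least 2, and 27 of these 34 had a later difference of at least 1 and were not members. The deposited table gave no symbol for any member, so the other members are called by their identifiers. Coordinates are on the SolTub 3.0 build.

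A pair of named members concerns photosynthesis and its product starch. PGSC0003DMG400001549 is listed as beta-amylase 1, chloroplastic, an enzyme that releases maltose from starch. It lies on chromosome 9 from 57420528 to 57423450 on the plus strand and had the most reads of all members at 0 h. It had 6068, 3242, 6257, 2201 and 3101 reads in US over the 5 times, from 0 h to 4 w, against 29168, 4607, 5875, 3288 and 2703 reads in the control. At 0 h this was 166 RPM in US and 862 RPM in the control. The control at 0 h stood far above the other 9 libraries, and US at 0 h, in RPM, was itself slightly above all later libraries, of which the highest was the control at 48 h with 154 RPM. The control held 5.18 times the level of US at 0 h (exact 95% counting interval 5.04 to 5.32).

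PGSC0003DMG400033037 is listed as the large subunit of Rubisco (rbcL), the enzyme that fixes carbon dioxide. The gene belongs to the chloroplast genome, yet this feature lies on chromosome 6 (51874728 to 51876278, minus strand), so reads from a near-identical copy may be counted here and its value is uncertain. It had 75.5, 13.1, 22.3, 19.7 and 28.2 RPM in US over the 5 times and 449, 20.4, 35.4, 17 and 15.3 RPM in the control. Both 0 h libraries exceeded every later library, and the control did so by more. The control at 0 h was 5.94 times as high as US (5.70 to 6.19). The study's lists held 6 plastid-encoded genes, and these went both ways at 0 h. All were listed by the study for 0 h, so a large difference there was how they came to be listed. The 4 with at least 1 RPM in the control, all of photosynthesis, were at least 4-fold lower in US (median difference -2.62), and of these rbcL alone met the limits on later times. The other features, both listed as ribosomal protein S7, were below 1 RPM in the control and higher in US, with 1010 reads in US against 11 in the control for PGSC0003DMG400038200 (difference 6.41) and 364 against 17 for PGSC0003DMG400011820 (difference 4.31). They carry the same name, and only uniquely aligned reads were counted. Reads fitting both would thus be left out, so their values are uncertain. The study also measured PGSC0003DMG400038200 by RT-qPCR and reports the direction of RNA-seq for all genes so measured.

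An F-box protein and a transcription factor were also among the named members. PGSC0003DMG400020122 is listed as EID1-like F-box protein 3. F-box proteins choose the targets of ubiquitin ligases. EID1 itself acts in phytochrome A signalling in Arabidopsis, and whether this EID1-like protein does was not tested. The gene lies on chromosome 6 (59158020 to 59159136, plus strand) and had 21.6, 10.5, 45.8, 16.7 and 20.3 RPM in US and 162, 20.9, 31.2, 30.3 and 18.5 RPM in the control. US at 0 h lay within the range of the later libraries, whereas the control at 0 h was more than 3 times above all of them. The ratio of control to US at 0 h was 7.51 (6.97 to 8.10).

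PGSC0003DMG400000380, listed as heat stress transcription factor C-1, belongs to the family that binds heat shock elements in the promoters of chaperone genes. It lies on chromosome 12 (4529741 to 4531488, minus strand). Its level was 11.1, 17.5, 20.2, 35.6 and 62.2 RPM in US, against 76.4, 10.7, 34.6, 39.9 and 52.5 RPM in the control, a ratio of control to US of 6.88 at 0 h (6.19 to 7.66). US values became higher with each time, whereas the control fell to its lowest level at 24 h and was higher again afterwards. The difference between US and control at 24 h was 0.71, thus of the opposite sign to that at 0 h and within the limit of the rule.

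Water transport was represented by PGSC0003DMG400028182, listed as aquaporin TIP1-1, a water channel of the vacuolar membrane, on chromosome 10 (55272336 to 55274167, minus strand). Its level was 5.59, 24.4, 19.1, 60.5 and 35.8 RPM in US and 55.9, 26.5, 12.5, 36.6 and 39.9 RPM in the control. The ratio of control to US at 0 h was 9.99 (8.64 to 11.6). Here the control at 0 h was near the plantlet libraries and above those of 24 h and 48 h, and US at 0 h was the lowest of the 10. Of the 11 aquaporins and transporters in the study's lists with at least 1 RPM in the control, 1 was 4-fold lower in US at 0 h, this gene, and 2 were 4-fold higher. Their median difference was 0.04.

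The other named members were of unlike kinds. PGSC0003DMG400028817 is listed as a glycine rich protein-interacting protein (chromosome 12, 6062606 to 6063140, plus strand). It had 2.47, 43.6, 63.0, 42.7 and 72.8 RPM in US and 27.5, 76.2, 71.2, 67.8 and 118 RPM in the control, so that both 0 h libraries were the lowest of their treatment and US was below the control at every time. The ratio of control to US was 11.1 at 0 h (8.96 to 14.0). PGSC0003DMG400021108 is listed as tetrahydrocannabinolic acid synthase-like, a name taken from an oxidase of hemp, and lies on chromosome 2 (29336420 to 29338253, minus strand). At 0 h its reads numbered 18 in US and 363 in the control, which is 0.494 and 10.7 RPM and a ratio of control to US of 21.7 (13.6 to 37.1), and it had 0 reads in all 8 later libraries.

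**Figure D2:**
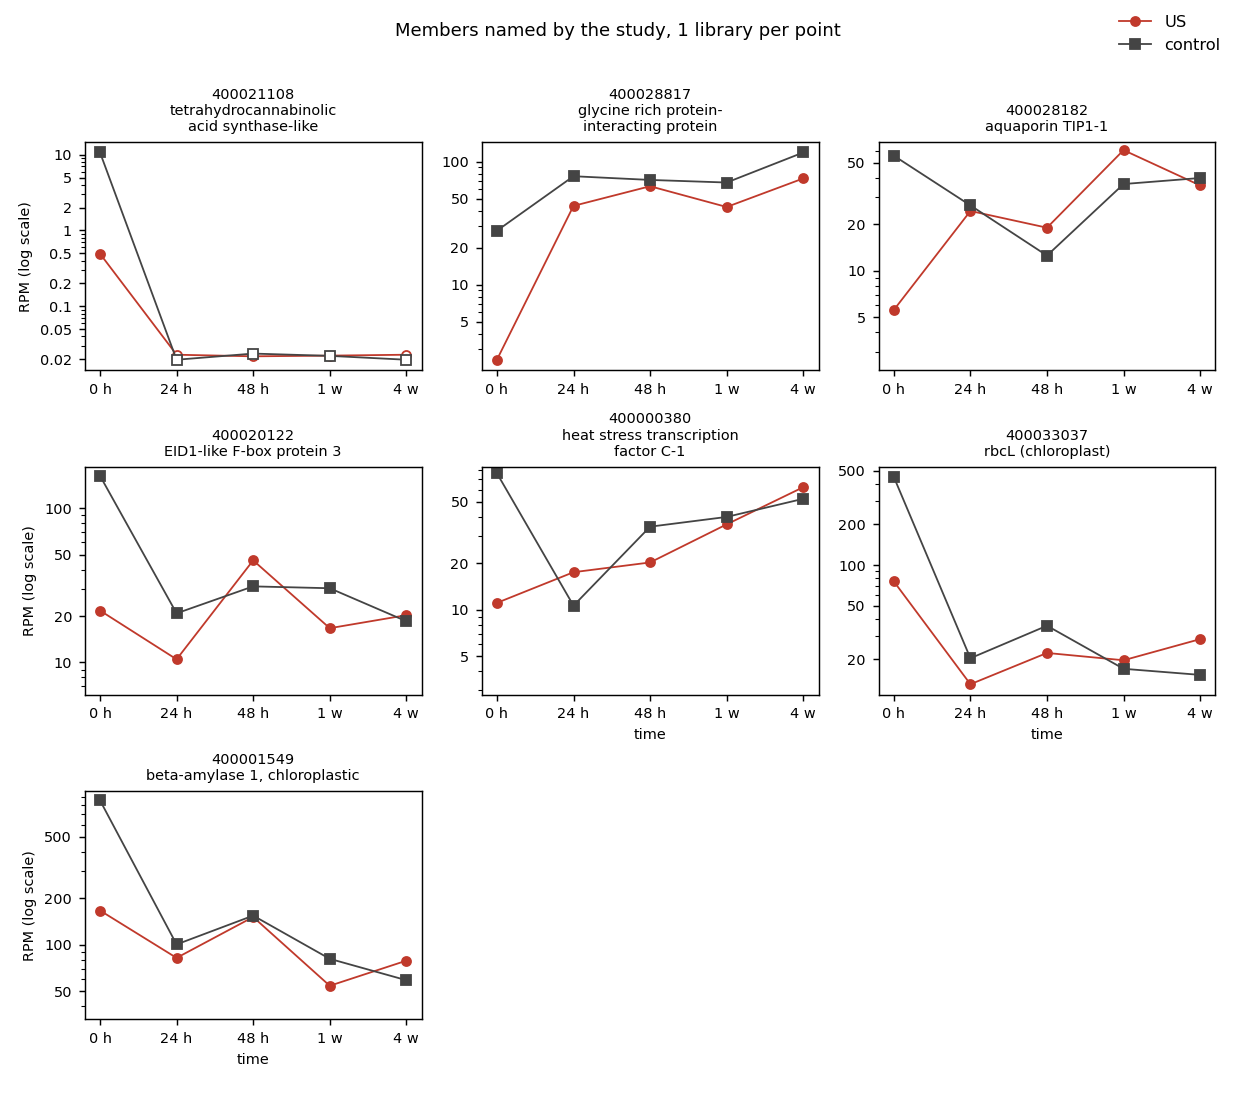
Level of the 7 named members in RPM (vertical axis, log scale, own range per panel) against time (horizontal axis), with 1 library per point, US as circles and the control as squares. Open symbols are libraries with 0 reads, drawn at the value of 0.9 reads. After 0 h US and the control lie within 2-fold of each other in all panels, as the rule required, at levels far below the control at 0 h for rbcL and beta-amylase 1 and above it for the glycine rich protein-interacting protein.

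Other groups of the study's lists held few members or none. Of 14 proteinase inhibitors with at least 1 RPM in the control at 0 h, 5 were 4-fold lower and 6 higher in US, and none was a member. Of 10 genes of abscisic acid and water deficit, 4 were lower and 0 higher (median -1.74), and of 12 peroxidases and antioxidants 5 were lower and 0 higher (median -0.70), again with 0 members. Of 23 transcription factors, 4 were lower and 1 higher, with 1 member, the heat stress factor. These lists too were chosen on the same samples.

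On the deposited scale the largest fall belonged to PGSC0003DMG400045092 (chromosome 11, 6617894 to 6618490). It had 47 reads in the control at 0 h and 0 in the other 9 libraries, so its size rests on the value of 0.9 reads held by genes without reads. On log2(RPM + 0.5) its difference was -1.92, short of the threshold of the rule. With US at 0 h set to the floor of 3 reads in that library, the control was 16.9-fold higher. The lower end of the 95% counting interval of the ratio was 13.2. PGSC0003DMG400023295 (7 reads in US against 44 in the control at 0 h) and PGSC0003DMG400002473 (34 against 187) likewise had 0 reads in every later library. Together with the tetrahydrocannabinolic acid synthase-like gene this made 4 of 58 members with 0 reads after 0 h, and such genes were 8 of the 20443 features (0.0391%). A count of 0 allows up to 0.0654 to 0.0788 RPM in the later libraries. For these 4 genes the later differences come from the library totals alone, so they met the limits with no measured later level. PGSC0003DMG400005354 and PGSC0003DMG400027551 had 0 reads at 1 w and up to 45 reads in the other later libraries.

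In 3 further genes with a large fall, the mean later level was above the control at 0 h. PGSC0003DMG400015555 (chromosome 11, 45208003 to 45209479) had 0.329, 11.8, 18.8, 22.4 and 15.4 RPM in US and 3.69, 15.5, 33.4, 23.7 and 25.6 RPM in the control. Both 0 h libraries were the lowest of their treatment. PGSC0003DMG400024797 (chromosome 4, 58576129 to 58576926) had 0.165, 2.52, 1.86, 2.64 and 3.62 RPM in US and 1.98, 3.33, 1.18, 2.11 and 3.14 RPM in the control, with US at 0 h the only library below 1 RPM. PGSC0003DMG400025076 (chromosome 4, 61438028 to 61442579) had 0.494, 5.59, 15.4, 23.0 and 3.93 RPM in US and 5.47, 8.56, 18.8, 15.7 and 4.30 RPM in the control. Its plantlets at 4 w were thus lower than those at 1 w in both treatments.

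PGSC0003DMG400038092 (chromosome 1, 78423147 to 78425384) stayed below its control level of 0 h, with 0.247, 0.559, 0.823, 0.741 and 0.076 RPM in US and 2.19, 0.566, 0.867, 1.03 and 0.0436 RPM in the control. The ratio of control to US at 0 h was 8.86 (4.42 to 20.1). PGSC0003DMG400014642 (chromosome 6, 571177 to 573828) stayed below it too, with 1.10, 5.31, 0.291, 2.30 and 2.08 RPM in US and 11.4, 4.95, 0.473, 3.05 and 2.71 RPM in the control. This gene was lowest at 48 h in both treatments, and the 0 h libraries held both its highest level (control) and one of its lower levels (US). The ratio of control to US at 0 h was 12 for PGSC0003DMG400024797 (5.25 to 33.9), 11.2 for PGSC0003DMG400015555 (6.20 to 22.3), 11.1 for PGSC0003DMG400025076 (6.81 to 19.1) and 10.4 for PGSC0003DMG400014642 (7.50 to 14.8). These intervals are wide where US had few reads, with 6 and 12 reads for the first and second of these genes.

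Of the 10 members with the highest RPM in the control at 0 h, 4 were named ones and 6 had no name. PGSC0003DMG400002590 (chromosome 3, 60832523 to 60838528) had 41.1, 240, 131, 461 and 142 RPM in US and 185, 248, 218, 395 and 134 RPM in the control, and US at 0 h stood alone below 100 RPM. PGSC0003DMG400022075 (chromosome 5, 34686001 to 34688062) had 10.0, 129, 107, 74.3 and 207 RPM in US and 58.8, 137, 75.2, 103 and 108 RPM in the control. PGSC0003DMG400011950 had 17.1, 133, 154, 295 and 120 RPM in US and 80.3, 73.1, 147, 186 and 110 RPM in the control. In these genes US at 0 h was the low library and the control at 0 h lay within or near the later levels.

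In the remaining 3, the control at 0 h was the high library, and for PGSC0003DMG400023700 US at 0 h was also the lowest of the 10. PGSC0003DMG401011339 (chromosome 1, 57856954 to 57862908) had 29.1, 10.7, 13.1, 9.41 and 21.4 RPM in US and 139, 11.5, 18.4, 7.79 and 14.8 RPM in the control. Its span overlaps that of another feature, so its value is uncertain. PGSC0003DMG400023700 (chromosome 10, 57306084 to 57307830) had 21.9, 39.5, 34.5, 38.2 and 80.5 RPM in US and 103, 24.4, 46.6, 27.0 and 71.2 RPM in the control. PGSC0003DMG400017640 (chromosome 5, 6058127 to 6060925) had 18.9, 39.5, 27.0, 43.0 and 13.7 RPM in US and 94.5, 26.6, 39.8, 42.4 and 21.8 RPM in the control.

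The next question was which of the 0 h libraries stood apart from the later ones, since a fall confined to 0 h can mean a low US library or a high control library. US at 0 h was the lowest of the 10 libraries for 36 of 58 members (62.1%), against 21.3% of the 20443 features, and the control at 0 h was the highest for 22 members (37.9%), against 12.6%. Both held for 2 members and neither for 2. Because the rule sets US below the control at 0 h, both shares are raised by the choice of the genes. Likewise built from the 0 h values that chose the genes, and so no more than a description, the mean level after 0 h was nearer to the control than to US at 0 h for 38 members (65.5%), against 52.8% of the features, and for 21 of the 31 genes raised only at 0 h that had at least 1 RPM in the control (67.7%).

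By this mean the members can be sorted into 3 classes, again as a description. In 29 members the later level was above both 0 h libraries, by a median of 0.82 over the control and 3.48 over US. In 17 it lay between them, with a median of -1.31 against the control. In 12 it was below both, with medians of -4.37 against the control and -1.59 against US. These included rbcL, beta-amylase 1 and the 4 genes with 0 reads after 0 h. For PGSC0003DMG400045092, US at 0 h had 0 reads as well. Its place below US (-0.18) thus comes from the library totals alone and is no measured difference. The fall at 0 h was of like size in the classes, with medians of -2.47, -2.32 and -2.57. The class of the genes above both held the glycine rich protein-interacting protein, and the aquaporin, the F-box protein and the heat stress factor lay between.

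**Figure D3:**
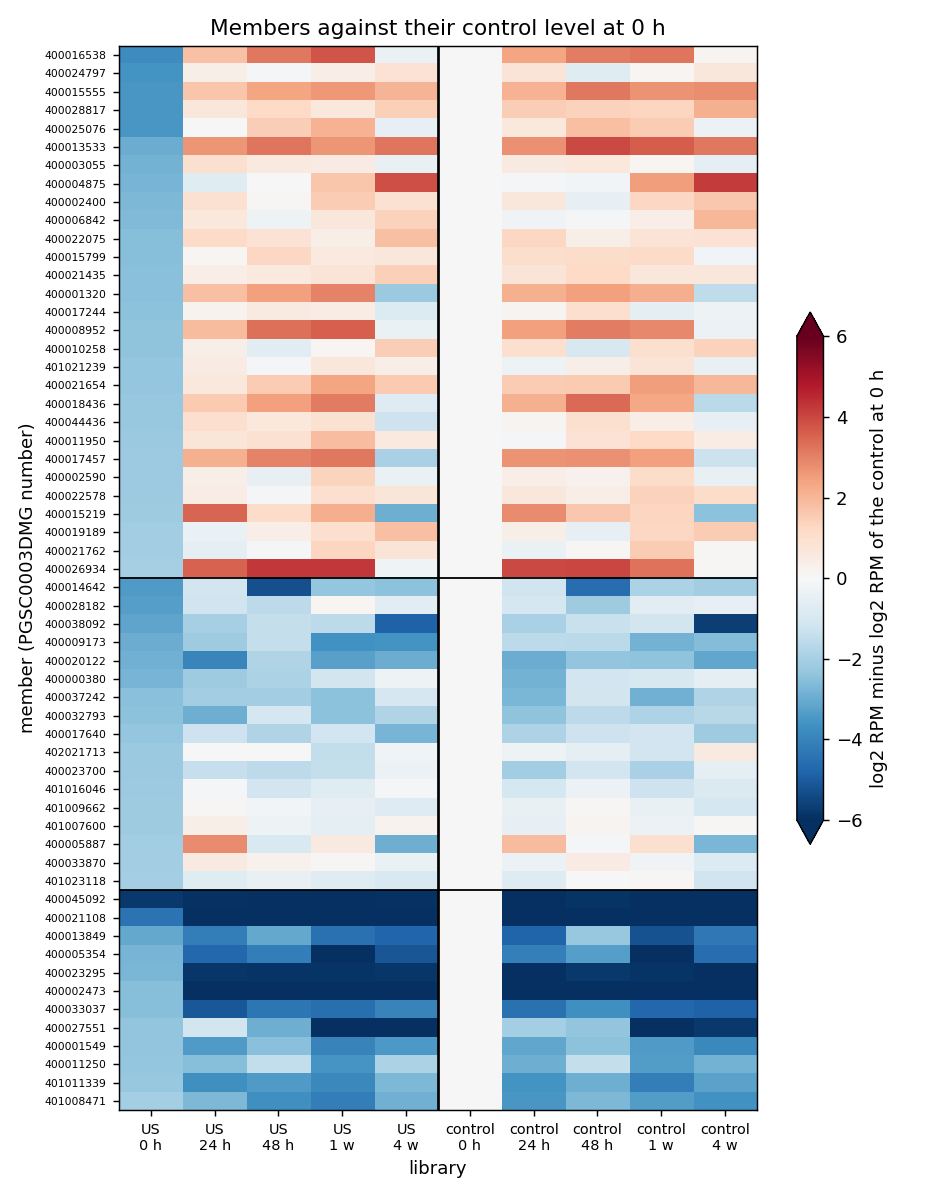
Level of each member (rows) in the 10 libraries (columns, US on the left, the control on the right) as log2 RPM minus that of the control at 0 h, so that the column of the control at 0 h is white. Black lines part the 29 members with a later level above both 0 h libraries (top), the 17 between them and the 12 below both (bottom), and colours deepen no further beyond 6 on either side. The classes use the deposited values, in which a gene without reads holds the value of 0.9 reads.

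From 0 h to 24 h the rule forces the change in US to exceed that in the control by more than 1 in every member, so the following counts only describe how each treatment took part. In US, 35 members were at least 4-fold higher at 24 h than at 0 h and 4 were lower, with a median change of 2.38. In the control, 9 were higher and 17 lower, with a median change of -0.30. Over the 20443 features the median changes were 0.14 in US and 0.32 in the control.

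Changes between later times in both treatments were not used by the rule, and one of them was frequent among the members. Of the 49 members with a mean of at least 1 RPM over the 8 later libraries (on the log2 scale), 8 were at least 4-fold lower at 4 w than at 1 w in both treatments (16.3%). The same held for 1.51% of the 13726 features that passed this minimum of mean level and had later differences under 1. It held for 3.24% of 20499 features with no limit on the differences, and for 0 of the 42 genes raised only at 0 h that passed the minimum. Levels above the minimum were not matched between members and features. The 9 members with a lower mean level were not counted, and 1 of them, PGSC0003DMG400038092, also had a lower level at 4 w, with 3 reads in US and 2 in the control.

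These 8 members were singled out after their values were seen. PGSC0003DMG400001320 (chromosome 2, 46273513 to 46276446) had 7.13, 143, 223, 320 and 8.49 RPM in US and 40.5, 177, 219, 184 and 14.1 RPM in the control, so that the difference of 4 w from 1 w was -5.24 on the log2 scale in US and -3.70 in the control. PGSC0003DMG400017457 (chromosome 5, 11841149 to 11843566) had 2.82, 57.0, 102, 115 and 3.35 RPM in US and 12.9, 83.8, 85.4, 71.8 and 5.30 RPM in the control. PGSC0003DMG400026934 (chromosome 6, 53500062 to 53503598) had 1.59, 73.9, 122, 121 and 5.30 RPM in US and 6.38, 97.9, 103, 60.9 and 6.63 RPM in the control. In each of these genes 0 h and 4 w were low and the 3 times between were high, and US at 0 h was the lowest library.

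PGSC0003DMG400016538 (chromosome 6, 49409225 to 49410217), also among the 10 largest falls, had 0.192, 8.79, 23.7, 36.0 and 2.0 RPM in US and 2.60, 13.6, 21.6, 24.1 and 2.88 RPM in the control. PGSC0003DMG400008952 (chromosome 9, 2671505 to 2672947) had 0.219, 4.37, 11.5, 14.1 and 0.887 RPM in US and 1.18, 6.47, 9.75, 8.70 and 0.916 RPM in the control. PGSC0003DMG400018436 (chromosome 5, 4715987 to 4718061) had 0.274, 3.99, 7.38, 11.7 and 0.786 RPM in US and 1.33, 5.86, 14.0, 6.57 and 0.436 RPM in the control. The control at 0 h was below the control at 4 w for the first of these and above it for the others.

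The last pair peaked at 24 h. PGSC0003DMG400015219 (chromosome 3, 50125873 to 50126839) had 1.45, 73.5, 13.6, 29.1 and 0.836 RPM in US and 6.44, 46.7, 19.6, 15.5 and 1.18 RPM in the control. PGSC0003DMG400005887 (chromosome 6, 54773036 to 54774143) had 0.548, 16.5, 1.23, 3.41 and 0.304 RPM in US and 2.33, 8.61, 2.21, 4.52 and 0.349 RPM in the control. In both, the 4 w libraries lay below the 0 h library of their treatment. Over the 8 genes the difference between 4 w and 1 w ran from -5.24 to -3.49 in US and from -3.91 to -3.07 in the control.

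**Figure D4:**
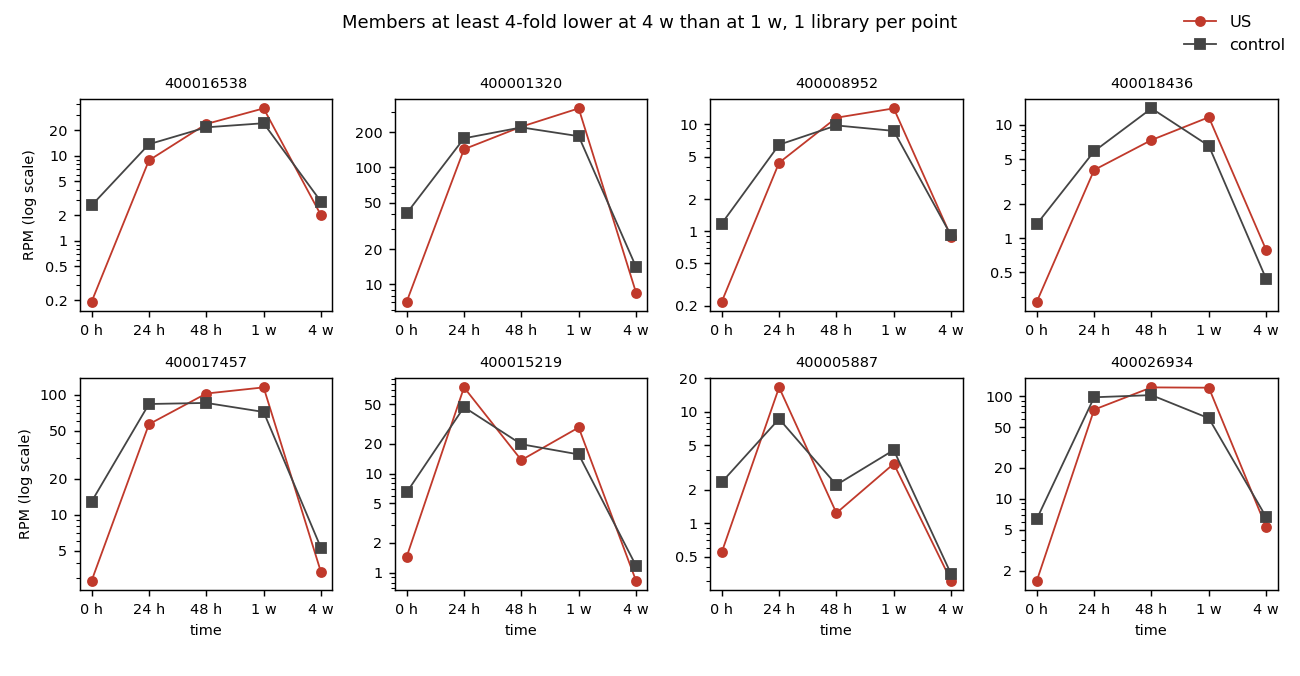
Level in RPM (vertical axis, log scale, own range per panel) against time (horizontal axis) of the 8 members that were at least 4-fold lower at 4 w than at 1 w in both treatments, with 1 library per point, US as circles and the control as squares. In every panel both treatments are high from 24 h to 1 w or peak at 24 h, and lower at 0 h and 4 w than at their peak.

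The other steps were rare. No member was 4-fold higher at 48 h than at 24 h in both treatments (background 0.0291%), and 1, PGSC0003DMG400014642, was 4-fold lower (background 0.0729%). The same gene was the 1 member that was 4-fold higher at 1 w than at 48 h (background 0.0801%). No member was 4-fold lower at 1 w than at 48 h (background 0.386%), and none was 4-fold higher at 4 w than at 1 w (background 0.219%), whereas 3 of the 42 genes raised only at 0 h were (7.14%).

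Plantlets (1 w and 4 w) were compared with cultured explants (24 h and 48 h) by limma on the means of US and control at each time, 2 times against 2, with the 0 h libraries left out. With Benjamini-Hochberg adjustment, 0 of 20560 features passed an adjusted p of 0.05 (0%), and so 0 of the 49 members tested. At an unadjusted p under 0.05 there were 2256 features (11.0%) and 5 members (10.2%), a share near the background. In limma the 5 members had unadjusted p of 0.00593 to 0.0349 and adjusted p of 0.404 to 0.438. PGSC0003DMG400004875 was higher in plantlets by 3.30 ± 0.70 (SE), with 16.7 and 77.4 RPM in US and 30.5 and 96.5 RPM in the control at 1 w and 4 w, against 3.18 and 5.35 RPM in US and 5.08 and 4.68 RPM in the control at 24 h and 48 h. PGSC0003DMG400019189 differed by 1.43 ± 0.30, the heat stress factor PGSC0003DMG400000380 by 1.29 ± 0.44, aquaporin PGSC0003DMG400028182 by 1.09 ± 0.35 and PGSC0003DMG400009173 by -1.47 ± 0.39. None of these differences passed the adjusted threshold with 2 times per arm. With 1 w left out, 1173 features and 7 members passed, and with 4 w left out 15 features and 0 members did.

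The members had shorter genes and were spread over the genome. Their span on the genome, introns included, had a median of 1830 bases (410 to 6006), against 3540 bases for the 20443 features. Chromosome 6 held 9 members (0.483% of its 1862 features), chromosome 10 held 7 (0.528% of 1327) and chromosome 8 held 1 (0.0701% of 1427). No members were neighbours, as the nearest pair on chromosome 6 lay 473446 bases and 47 features apart. The spans of 3 members overlapped another feature (PGSC0003DMG400009173, PGSC0003DMG400044436 and PGSC0003DMG401011339), and since the strand used in counting was not given, reads of the overlapping genes cannot be told apart.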

How the data were processed

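Total RNA of the 10 samples was enriched for mRNA with oligo(dT) beads, and stranded libraries were sequenced as paired ends. Per the labels and methods, the authors trimmed reads with Trim Galore 0.5.0, aligned them with HISAT2 2.1.0 to SolTub 3.0 and quantified exon reads of uniquely aligned pairs (mapping quality of at least 60) in SeqMonk. The deposited values are log2 RPM (log2 reads per 1000000 reads of the library). A gene without reads holds the value of 0.9 reads, from which library totals and reads were recovered. At these totals 99.98% of the values above the lowest came within 0.1 of a whole read.

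Members were taken by the rule on the deposited log2 values. The members and the gene lists were chosen with earlier results of these data known. Ratios of RPM at 0 h carry exact conditional 95% intervals (Clopper-Pearson) from recovered reads. The intervals and the floor of 3 reads describe counting error only. As parts of a read pair may be counted more than once, reads may not be independent. The intervals may then be too narrow and the floor too low. limma 3.58.1 in R 4.3.3 (lmFit, eBayes with trend) was fitted to features whose log2 RPM averaged 0 or more in the 8 later libraries, and its script was tested on simulated data. Named in the text are the members with a name in the study's lists, the 10 largest falls at 0 h and the 10 highest control levels at 0 h. Also named are the 3 members on the inner and the 3 genes on the outer side of the threshold. Members called by limma were to be named too, but its main fit called none. Further members were singled out after their values were seen: those with a later library without reads, a low level at 4 w, an overlapping span or an unadjusted p under 0.05. Names come from the study's supplementary lists, with no values taken. Alternatives were quantile normalisation, log2(RPM + 0.5), other thresholds and left-out times. Promoter, transcript and protein sequences were not analysed here.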

Additional observations from a re-analysis of the deposited data

How the results depend on the processing

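The number of members depended on the thresholds. It was 38 with at least 4 RPM in the control at 0 h, 175 with no minimum there, 168 with a fall of at least 1.5, 11 with a fall of at least 3, 6 with later differences under 0.5 and 134 with later differences under 1.5. It was 54 after quantile normalisation, 62 on log2(RPM + 0.5) (30 shared), 55 without overlapping spans and, in alternatives chosen after seeing the data, 40 with at least 1 RPM and 52 with at least 1 read in every later library. In limma, 0 features passed; without the filter on low values 1 did, with control libraries alone 2, and with the 8 libraries as 4 against 4, which counts US and control of a time as separate, 324, of which 2 were members. Leaving out a time in turn gave 0 to 1173 features and 0 to 7 members, both highest without 1 w, when plantlets were represented by 1 time assumed to vary like the others. All 8 members low at 4 w were found again after quantile normalisation (8 called) and on the mean of US and control (9 called). US at 0 h was the lowest library for 35 members and the control the highest for 24 after quantile normalisation, and the later level was nearer the control for 37 or 38 members with any 1 time left out. For the 37 members given by identifier, the difference at 0 h stayed negative in both scalings, and left its counting interval for 8 under quantile normalisation and for 14 on log2(RPM + 0.5). No paired analysis was possible because each group holds 1 library and so no replicate numbers are shared beyond the first; the time shared by a US and a control library entered limma through their mean. With 1 library per group and 23 members under 30 reads in US at 0 h, depth limits the size of the single falls. No replicate error is known for the members.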
